A study of Caenorhabditis elegans with 2 samples.

Results

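Body wall muscle structure genes are described here as 41 protein-coding genes named in a fixed list, out of 19973 protein-coding genes of the Ensembl annotation of WBcel235, the assembly that ce11 also denotes, and every one of the 41 names was found once in that annotation. The list was written from what the genes encode and used no measured value, although it was drawn up with earlier results of these data known. The data are chromatin immunoprecipitation with sequencing (ChIP-seq) against AMA-1, which is the large catalytic subunit of polymerase II, in intact larvae of the N2 laboratory strain of Caenorhabditis elegans at the L3 stage, with males and females pooled. The labels describe 2 biological replicates of 1 group, which leaves nothing to test between conditions, and no allele, transgene or treatment is named in the labels.

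Body wall muscle of this worm is obliquely striated and drives crawling. Myosin-based thick filaments are held at M-lines, actin-based thin filaments are held at dense bodies, and both structures are tied through integrins to the basement membrane and the body covering. Genes for these parts were largely found through worms that are uncoordinated (unc) or whose embryos arrest paralysed (pat). RNA polymerase II binds where a gene is being started, read or ended, so that a region of enrichment at a gene marks polymerase there in some cells of the animal. Whole animals were used, and polymerase in fewer muscle nuclei cannot be told apart from less polymerase in each.

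Each gene was scored at 3 places. The 5′ window reached 500 bp to either side of the annotated 5′ end, the 3′ window 500 bp to either side of the annotated 3′ end, and the body was what lay between them, which left 39 members with a body. A gene was marked when the summit of at least 1 region fell there. The optimal list, which the authors filtered by IDR (irreproducible discovery rate, the repeatability of ranks between replicates), held 3052 regions. The pooled list, called by the authors on the reads of both replicates together, held 30000 regions and contained all the optimal ones as its strongest, and each replicate had its own list of 30000. Signal below is the authors' own value per region, of unknown scale, and is read only within a list together with its rank, where 1 is the strongest. The lowest optimal signal was 57.9, while the pooled list reached down to 14.3 with a median of 24.6.

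The optimal list marked few of these genes, as it marked few of all genes, and the weaker pooled regions marked most of them. In the 5′ window an optimal summit was found at 1 of 41 members, unc-60 (2.44%, exact 95% interval 0.0617 to 12.9%), against 6.07% of all protein-coding genes. In the body there were 0 of 39 members (exact 95% interval 0 to 9.03%, where 3 counts, the limit taken for a count of 0, would be 7.69%), against 3.18%, and in the 3′ window there were 4 of 41 (9.76%, 2.72 to 23.1%), namely cpn-3, pat-4, deb-1 and unc-45, against 5.81%. Taking any of the 3 places, 5 of 41 members (exact 95% interval 4.08 to 26.2%) had an optimal summit, against 10.9% of all genes. Each exact interval covered the background share.

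With the whole pooled list, 25 of 41 members had a summit in the 5′ window (61.0%, exact 95% interval 44.5 to 75.8%), against 31.8% of all protein-coding genes. In the body it was 30 of 39 (76.9%, 60.7 to 88.9%) against 28.6%, and in the 3′ window 23 of 41 (56.1%, 39.7 to 71.5%) against 32.1%. Any of the 3 places was marked at 36 of 41 members (87.8%) against 46.4% of all genes. Of the 25 members marked at the 5′ end, 24 were marked only by regions below the optimal list. Over all genes, 1213 of the 6346 marked there had an optimal summit, so most of these were likewise marked only below that list. The intervals cover counting error only, and genes are not independent, since neighbours can share a region. The lists hold no region for a place that fell below their end, so an unmarked gene is one without a region here and not one without polymerase.

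**Figure D1:**
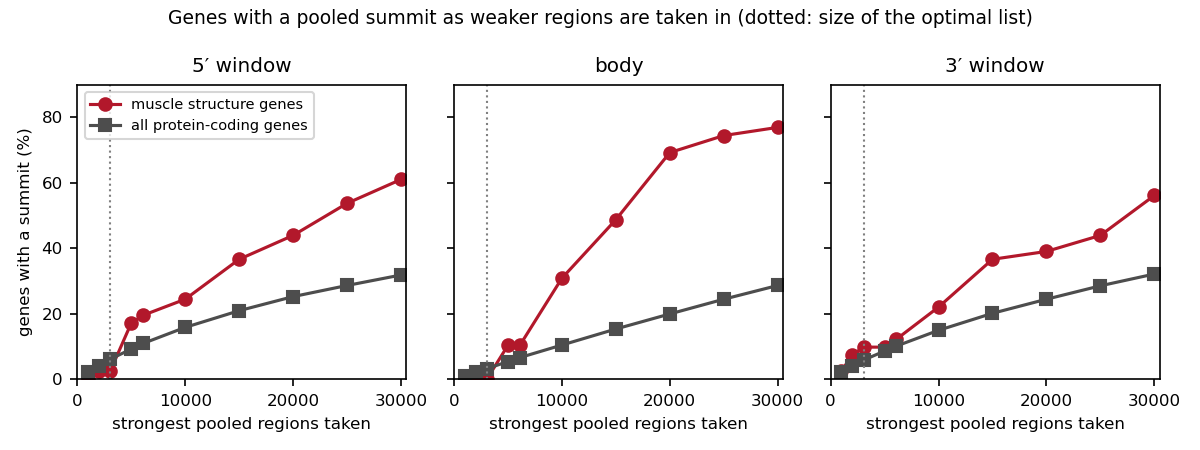
Percentage of genes with a summit in the 5′ window, body and 3′ window (vertical axis) as pooled regions are taken in from the strongest to the weakest (horizontal axis), for the 41 muscle structure genes (circles) and all protein-coding genes (squares); the dotted line marks the 3052 regions of the optimal list. At 3052 regions the 5′ share is 2.44% of members and 6.07% of all genes, at 10000 regions 24.4% and 15.8%, and at 30000 regions 61.0% and 31.8%.

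At most marked members, as at most marked genes of the annotation, the strongest region ranked below the optimal list. In the 5′ window, the strongest region ranked between the optimal list and rank 10000 at 9 members (22.0%, against 9.75% of all genes), from there to rank 20000 at 8 (19.5% against 9.35%) and below that at 7 (17.1% against 6.6%). In the body the same steps held 12, 15 and 3 members (30.8%, 38.5% and 7.69%, against 7.18%, 9.52% and 8.67%). In the 3′ window they held 5, 7 and 7 members, against 9.06%, 9.55% and 7.67% of all genes. Where a 5′ window was marked, the median signal of its strongest region was 26.9 over the 25 members and 31.5 over the 6346 genes marked. In the body the medians were 27.8 over 30 members and 25.9 over 4656 genes, and in the 3′ window 29.4 over 23 members and 29.9 over 6410 genes.

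The sequences below reach 50 bp to either side of 9 summits on which the results turn. They were chosen among the strongest that touch no exon, 3 before a 5′ end, 3 in introns and 3 past a 3′ end. They were read from the RefSeq copy of WBcel235, run 5′ to 3′ in the direction of the gene, and carry in capitals each E-box of the form CANNTG, the motif class that HLH-1, the worm's MyoD relative, and other basic helix-loop-helix factors bind.
unc-60 before the 5′ end (chrV:1474692-1474792, plus strand): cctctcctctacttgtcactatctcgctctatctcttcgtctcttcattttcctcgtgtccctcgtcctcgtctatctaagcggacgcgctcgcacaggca
atn-1 before the 5′ end (chrV:12478014-12478114, plus strand): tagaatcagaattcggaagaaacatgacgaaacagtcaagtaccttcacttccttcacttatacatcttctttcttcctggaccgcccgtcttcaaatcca
unc-45 before the 5′ end (chrIII:491264-491364, plus strand): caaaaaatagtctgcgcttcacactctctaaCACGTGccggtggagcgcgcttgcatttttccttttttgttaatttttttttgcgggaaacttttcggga
atn-1 intron (chrV:12479220-12479320, plus strand): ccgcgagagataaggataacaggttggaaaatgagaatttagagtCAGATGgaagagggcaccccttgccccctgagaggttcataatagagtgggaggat
unc-112 intron (chrV:14695377-14695477, minus strand): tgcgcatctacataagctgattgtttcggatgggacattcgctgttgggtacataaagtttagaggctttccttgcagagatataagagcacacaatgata
hlh-1 intron (chrII:4519275-4519375, plus strand): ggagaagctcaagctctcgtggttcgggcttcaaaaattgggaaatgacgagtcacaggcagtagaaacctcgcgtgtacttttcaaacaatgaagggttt
unc-45 past the 3′ end (chrIII:502686-502786, plus strand): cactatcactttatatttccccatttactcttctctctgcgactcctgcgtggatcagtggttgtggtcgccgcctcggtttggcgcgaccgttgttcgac
pat-4 past the 3′ end (chrIII:89349-89449, minus strand): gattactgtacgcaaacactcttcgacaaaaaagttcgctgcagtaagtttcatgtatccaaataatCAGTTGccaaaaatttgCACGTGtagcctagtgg
deb-1 past the 3′ end (chrIV:7084865-7084965, minus strand): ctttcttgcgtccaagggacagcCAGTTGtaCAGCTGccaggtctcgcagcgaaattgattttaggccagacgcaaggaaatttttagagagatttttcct
Of these, the deb-1 window held CAGCTG, the E-box form known for vertebrate MyoD, and the pat-4, unc-45 (before the 5′ end) and atn-1 (intron) windows held other E-boxes. The remaining windows held none, among them that of unc-60, the strongest at a 5′ end. Over all member summits in 5′ windows, 13 of 31 had a CANNTG on either strand within 50 bp (41.9%), against 35.8% of all 7608 pooled summits in 5′ windows. The form CAGCTG, which every count of CANNTG includes, was in 0 of 31 of them (2.94% of the 7608), in 4 of 150 body summits (2.67%) and in 4 of 29 summits of 3′ windows (13.8%), against 2.76% of all 30000 pooled summits. The CArG box, the motif of serum response factor and its worm relative UNC-120, was in 0 of the 210 member windows and in 0.477% of all pooled windows. A match describes the letters and is not a binding site.

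Genes of the thick filament were marked at the 5′ end in 6 of 7 cases, where 31.8% of all genes were. For unc-15, which encodes paramyosin, the core protein of thick filaments (WBGene00006754, chromosome I, 7376604 to 7383197, minus strand), the pooled summit at 7383047 was exonic and 150 bp downstream of the 5′ end. Its signal was 52.8 (rank 3743). The region there had a signal of 34.3 in replicate 1 (rank 4773) and of 19.5 in replicate 2 (rank 3610), and the pooled rank fell short of the 3052 optimal regions. For unc-54, the major myosin heavy chain of body wall muscle (WBGene00006789, chromosome I), the summit lay 130 bp before the 5′ end with a pooled signal of 40.1 (rank 6513), and signals of 11.7 and 15.6 in replicates 1 and 2 (ranks 23746 and 5857). A further 7 pooled summits ran through its body and 1 lay 236 bp past its 3′ end, where replicate 2 had a region of rank 3648 and replicate 1 had none within 200 bp. That last summit also lay inside aex-5, 162 bp from its 5′ end, and counted for both genes. In replicate 2 alone the strongest body region of unc-54 ranked 940. The other myosin heavy chain, myo-3, had no pooled summit at either end and 2 weak ones in the body, of at most 21.0.

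For mlc-3, the essential light chain of myosin (WBGene00003371, chromosome III), an exonic summit 86 bp downstream of the 5′ end had a pooled signal of 50 (rank 4191), with 46.1 in replicate 1 and 12.21 in replicate 2 (ranks 2570 and 9390). The regulatory light chain genes mlc-1 and mlc-2 are close copies that lie next to each other on X, and reads from shared sequence could have been assigned to either. The mlc-1 summit lay 8 bp downstream of the 5′ end and had a signal of 26.7 (17.3 in replicate 1, no region within 200 bp in replicate 2), and the stronger mlc-2 summit 237 bp before the 5′ end with 24.5 (14.5 and 11.4). Past the 3′ end of mlc-1 a stronger summit had a signal of 41.8 (rank 6014), 137 bp outside that gene and inside slc-17.1, which ends there on the other strand. For unc-45, the chaperone that folds the myosin head (WBGene00006781, chromosome III, 491547 to 502625), both ends were marked. A 5′ summit 233 bp before the gene had a signal of 41.5, with 31.3 in replicate 1 and none within 200 bp in replicate 2, and another 397 bp inside had 39.6, with 23.8 and 12.3. The summit 111 bp past its 3′ end was in the optimal list, with 63.2 (rank 2524) and signals of 26.99 and 25.16 in the replicates (ranks 7452 and 2015). A small nucleolar RNA gene, F30H5.4, lay 68 bp from that summit, and its part in the signal was not tested.

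Genes of the thin filament were marked at the 5′ end in 7 of 13 cases, where 31.8% of all genes were. Among the 13 were both the member with the strongest 5′ region and genes with none. The unc-60 gene encodes the actin-severing proteins of the ADF/cofilin family (WBGene00006794, chromosome V, 1475086 to 1479576). Its optimal summit lay at 1474742, 344 bp before the 5′ end, with a pooled signal of 86.9 (rank 1238). The same region had a signal of 71.5 in replicate 1 (rank 967) and 17.0 in replicate 2 (rank 4850), a lower place in the second list than in the first. A second unc-60 summit in the first 500 bp, in an intron 250 bp inside, had 48.0 with 26.4 and 18.3 in the replicates. Another annotated gene, F53E2.2, shares this 5′ end. For cpn-3, a calponin-like protein of the actin filament (WBGene00000779, chromosome I, 3987940 to 3988699), the optimal summit lay 155 bp past the 3′ end with a signal of 92.7 (rank 1063), and with 51.3 and 21.8 in replicates 1 and 2 (ranks 2042 and 2806). Its 5′ summit, in an intron 104 bp inside, had 47.6 with 28.7 and 27.1, and ranked 1673 in replicate 2.

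The troponin and tropomyosin genes, which make contraction depend on calcium, differed among themselves. For pat-10, body wall troponin C, all 3 places were marked, with pooled signals of 48.8, 49.8 and 38.4 from the 5′ to the 3′ end, and all 3 summits had a region in both replicates. Replicate 1 ranked the 5′ and body regions at 4694 and 2657, and replicate 2 at 21167 and 20678, far apart in the 2 lists. For lev-11, tropomyosin (chromosome I, 14621169 to 14631094), no pooled summit lay in the 5′ window of the gene record, but 10 lay in the body and 1 past the 3′ end. All 11 of them had a region in replicate 2 and 4 also in replicate 1, and the strongest, in an intron, had a pooled signal of 49.8. The summits at 14625140 and 14625342 matched the same region of replicate 2 (rank 1404). The lev-11 gene has 11 annotated 5′ ends, so that a summit in the body of the gene record can lie at the start of a shorter transcript. The troponin I gene tni-1 had a 5′ summit of 27.7 and a 3′ summit of 32.9, both with a region in replicate 1 only. The 3′ summit stood 59 bp before the 5′ end of its neighbour F42E11.3 and 219 bp past the end of tni-1. The troponin I gene unc-27 and the troponin T gene tnt-2 were marked in the 3′ window only (29.4 and 31.1), the troponin T genes mup-2, tnt-3 and tnt-4 had 5′ summits of 21.3, 17.2 and 18.5, and tni-3, also troponin I, had no region in any of the 4 lists. Of the remaining genes, unc-78, a cofactor of cofilin, had 1 summit of 20.1 in the body that neither replicate list held within 200 bp, and unc-87, a calponin-repeat protein, had no pooled summit.

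**Figure D2:**
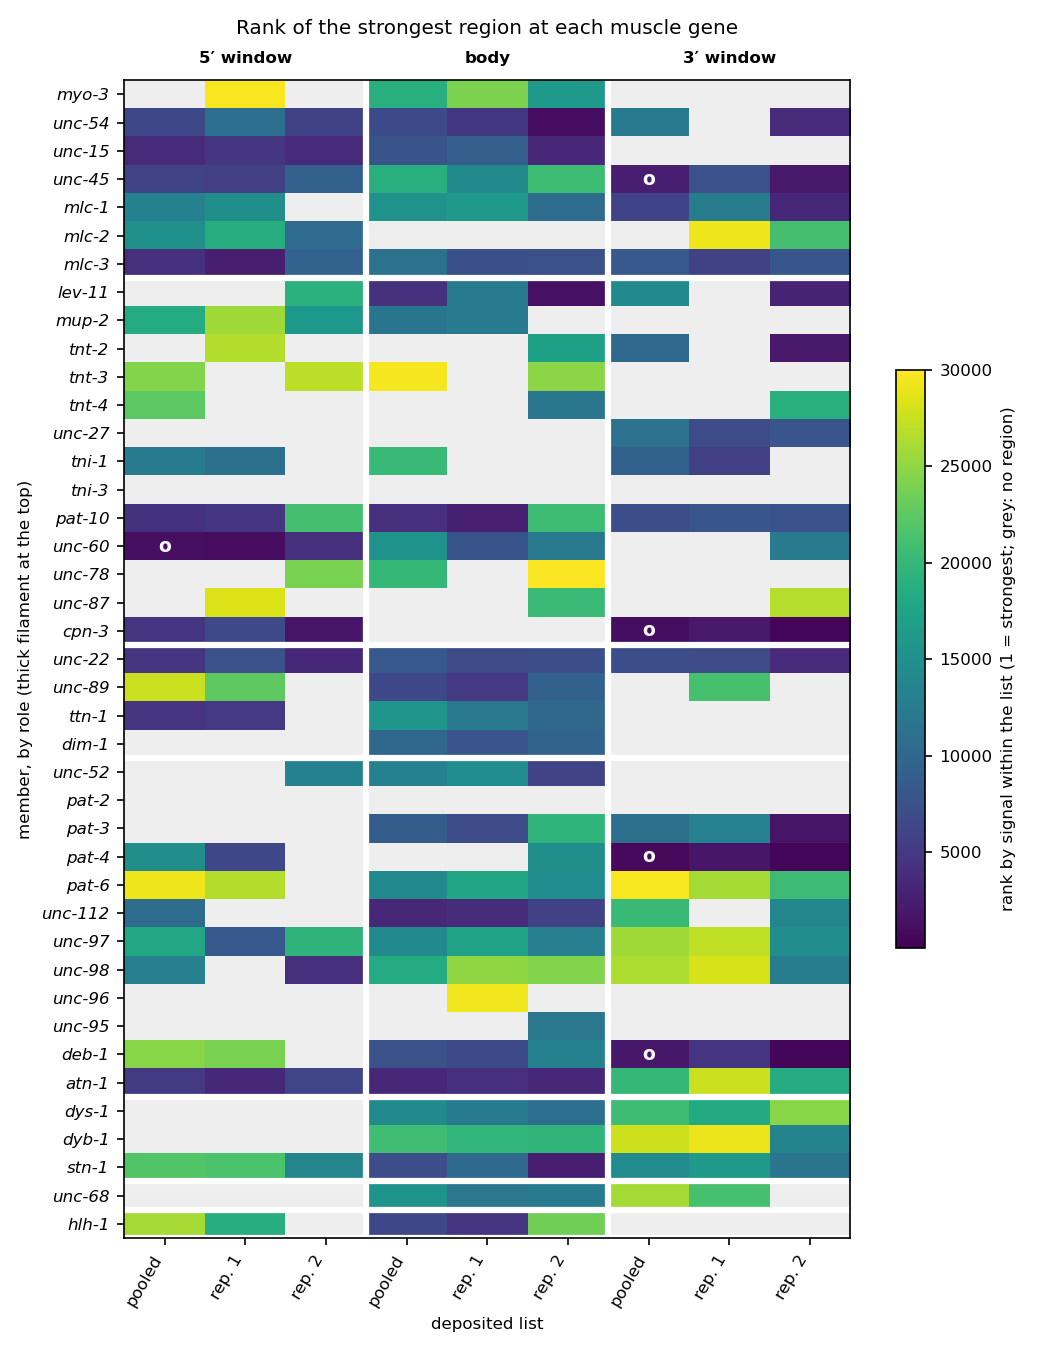
Rank of the strongest region (colour; 1 is the strongest of 30000) at each of the 41 members (rows, ordered by role) in the 5′ window, body and 3′ window, for the pooled list and both replicate lists (columns). Grey cells hold no region and a white o marks an optimal summit; unc-60 is the only member with one at the 5′ end, and cpn-3, pat-4, deb-1 and unc-45 have one at the 3′ end.

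The giant proteins of the sarcomere carry immunoglobulin and fibronectin repeats and, in twitchin, titin and UNC-89, kinase domains. They are encoded by some of the longest members. Taken with the shorter gene dim-1 (7.75 kb), 3 of 4 were marked at the 5′ end and 4 of 4 in the body. Of all genes over 10 kb, 39.4% were marked at the 5′ end and 71.2% in the body. From 5 to 10 kb, the class of dim-1, it was 43.1% and 51.1%. For unc-22, twitchin (WBGene00006759, chromosome IV, 11972697 to 12011007), a 5′ summit in an intron 428 bp inside had a pooled signal of 48.4 (rank 4489), with 27.1 and 20.1 in the replicates (ranks 7410 and 3394). Together with it, 26 pooled summits lay at unc-22, of which 9 had a region in both replicates and 22 lay in exons. For ttn-1, the titin relative (81.7 kb, chromosome V), the 5′ summit 364 bp inside had a signal of 47.7 (rank 4621) and 33.7 in replicate 1 (rank 4938), and replicate 2 had no region within 200 bp or anywhere in the 5′ window. Of its 20 pooled summits 3 had a region in both replicates and 12 in replicate 1 only. For unc-89, the obscurin relative of the M-line (55.2 kb), the 5′ summit was weak (15.4), the strongest of its 18 summits, in an intron, had 40.3, and 2 had a region in both replicates. The dim-1 gene, which encodes an immunoglobulin-repeat protein, had 3 body summits of at most 31.6.

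Genes that attach the filaments to the body wall were marked at the 5′ end in 7 of 12 cases, where 31.8% of all genes were. Their 5′ signals were mostly below the median of 31.5 over all genes marked there. For atn-1, α-actinin of the dense body (WBGene00000228, chromosome V, 12478411 to 12484449), the stronger 5′ summit lay 347 bp before the gene with a pooled signal of 45.1 (rank 5155), and 40.9 and 11.3 in the replicates (ranks 3346 and 10660). Its strongest summit of all lay in an intron 859 bp inside, with 55.9 (rank 3315), 37.2 in replicate 1 and 16.9 in replicate 2 (ranks 4063 and 4975). The strongest unc-112 summit, for the kindlin relative that binds integrin, lay likewise in an intron, 1227 bp inside, with 55.6 (rank 3338) and ranks of 3775 and 5850 in the replicates. Its 5′ summit of 30.6 was in neither replicate list. These atn-1 and unc-112 regions were the strongest body regions of any member, and both missed the optimal list.

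At the integrin-linked kinase gene pat-4 (WBGene00003931, chromosome III, 89453 to 94809, minus strand) the strongest region lay past the 3′ end. Its optimal summit at 89399, 54 bp outside, had a pooled signal of 104.7 (rank 806), with 53.5 in replicate 1 and 49.1 in replicate 2 (ranks 1843 and 393). This was the highest signal of any member. The 3′ end of the mitochondrial ribosomal protein gene mrpl-40 stood 156 bp from the same summit. For deb-1, vinculin of the dense body (WBGene00000942, chromosome IV, 7085215 to 7094266, minus strand), the optimal summit lay 300 bp past the 3′ end with 70.0 (rank 1989), and with 34.7 and 43.9 in the replicates (ranks 4681 and 530). That summit stood nearer to the ribosomal protein gene rps-4, 233 bp before whose 5′ end it lay, and counted for either gene. The deb-1 5′ summit had a signal of 17.0 and no region in replicate 2.

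The integrin genes themselves differed. For pat-2, the α subunit, no region was found in any of the 4 lists. For pat-3, the β subunit, 3 pooled summits of 21.3 to 33.9 lay in exons of the body and 3′ window. Each had a region within 200 bp in replicate 1 only. Replicate 2 had a region elsewhere in that 3′ window, with a signal of 26.66 (rank 1748). For unc-52, perlecan of the basement membrane (37.1 kb), 12 summits lay between 10.5 and 32 kb from the 5′ end and no pooled one in either end window, and 9 of them had a region in both replicates. The pat-6 (parvin), unc-97 (PINCH) and unc-98 (zinc finger) genes had 5′ summits of 14.6, 21.8 and 26.9, the last inside pcyt-1. The LIM gene unc-95 and the M-line gene unc-96 had no pooled summit, so that 5 members in all had none, namely unc-87, unc-95, unc-96, pat-2 and tni-3.

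The dystrophin complex, which links the actin skeleton to the membrane, was marked in the body and at the 3′ end in 3 of 3 genes and at the 5′ end in 1 of 3, against 28.6%, 32.1% and 31.8% of all genes and, for a body in a gene over 10 kb such as dys-1, 71.2%. For dys-1, dystrophin (30.9 kb), 9 summits of 14.4 to 25.3 were found, 3 of them with a region in both replicates. For dyb-1, dystrobrevin, there were 2, of 15.3 and 19.5. The syntrophin gene stn-1 had 6, up to 38.3 at an exonic summit that also lay inside the neighbouring gene F30A10.9. Its 5′ summit of 18.8 lay inside the small nucleolar RNA gene F30A10.16, and neither replicate had a region within 200 bp of it. Each replicate did have a region elsewhere in that 5′ window, with signals of 12.9 and 9.7. The ryanodine receptor gene unc-68, which releases calcium from internal stores, had 7 summits of at most 24.0 over 27.4 kb, none with a region in both replicates. For hlh-1 (WBGene00001948, chromosome II, 4518574 to 4522528) an intronic summit 751 bp inside had a pooled signal of 40.2 (rank 6484), with 35.3 in replicate 1 and 5.75 in replicate 2 (ranks 4498 and 26700), and the 5′ summit had 16.2.

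The replicates were compared next. In the 5′ window, replicate 1 marked 24 of 41 members (58.5%, against 30.8% of all genes) and replicate 2 marked 18 (43.9%, 28.5 to 60.3%, against 32%). Both marked 13 members, replicate 1 alone 11, replicate 2 alone 5 and neither 12. A pooled 5′ summit with a summit of each replicate within 200 bp was found at 12 members (29.3%, 16.1 to 45.5%), against 20.4% of all genes, and they were unc-15, unc-22, unc-45, unc-54, unc-60, unc-97, atn-1, cpn-3, mlc-2, mlc-3, mup-2 and pat-10. The exact intervals of the 5′ share in replicate 2 and of the share found in both replicates covered the background, and that of replicate 1 (42.1 to 73.7%) did not. In the body replicate 1 marked 28 of 39 members (71.8% against 27.2%), replicate 2 marked 33 (84.6% against 31.3%), and a summit found in both marked 21 (53.8% against 17.1%). In the 3′ window the counts were 21 of 41 (51.2% against 29.8%), 25 (61.0% against 34.3%) and 13 (31.7% against 20.6%).

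Single summits were then followed from the pooled list into the replicates. Of 210 pooled summits at the members, 76 had a region in both replicates (36.2%), 74 in replicate 1 only, 41 in replicate 2 only and 19 in neither (9.05%). In the whole pooled list 50.3% were in both and 5% in neither, and among the 26948 pooled regions below the optimal list 45.6% and 5.56%. Of the 31 summits in members' 5′ windows 45.2% were in both, against 56.1% over all genes. Across summits held by both replicate lists, their signals correlated with Spearman's rho = 0.45 at the 76 member summits and 0.44 at the 15081 of the whole list. By place, rho was 0.20 at members and 0.48 over all genes in 5′ windows, 0.25 and 0.38 in bodies, and 0.80 and 0.48 in 3′ windows, over 14, 49 and 13 member summits. Without optimal regions it was 0.35 at members and 0.22 in the rest of the pooled list. These values are descriptions of summits that share their reads with the pooled list.

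**Figure D3:**
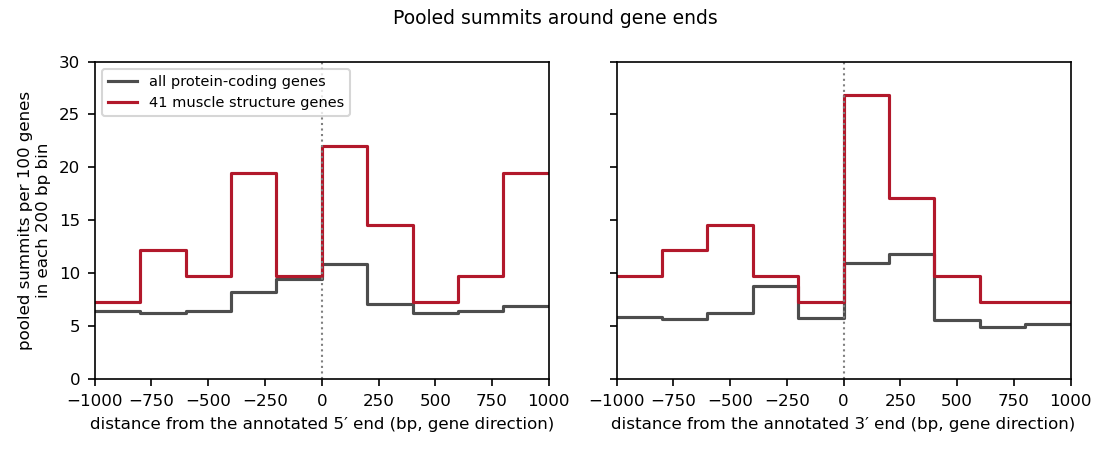
Pooled summits per 100 genes in bins of 200 bp (vertical axis) by distance from the annotated 5′ end (left) and 3′ end (right) in gene direction (horizontal axis), for the 41 members and all protein-coding genes. The fullest member bins are the first 200 bp downstream of the 5′ end, with 9 summits (22.0 per 100 genes against 10.9), and the first 200 bp past the 3′ end, with 11 (26.8 against 11). The bins 400 to 200 bp before and 800 to 1000 bp downstream of the 5′ end each hold 8.

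Member summits in 5′ windows lay at a median of 8 bp inside the annotated 5′ end, and those in 3′ windows 118 bp past the annotated 3′ end. Each window reaches 500 bp to either side, so evenly spread summits would also have a median near the end. By bins of 200 bp, 8 member summits lay 400 to 200 bp before the 5′ end. The next bins held 4 before the end and 9 after it. Of the 31 in 5′ windows 15 lay outside the gene, 11 in exons and 5 in introns. In this species a spliced leader often replaces the stretch of transcript before the first exon, and then the annotated 5′ end can be the splice acceptor. The acceptor letters TTTCAG stood within 50 bp before to 10 bp after the 5′ end, on the gene's strand, at 14 of 41 members (34.1%), at 6 of the 25 with a pooled 5′ summit (24.0%) and at 25.8% of all genes. The 5′ windows of members were richer in G and C than those of all genes, with 39.2% ± 4.35 (SD across the 41 members) against 35.6% ± 3.85, and marked windows averaged 40.2% in members and 36.6% in all genes. Bodies of members held 39.3% ± 4.17 against 37.0% ± 5.51, and 3′ windows 34.8% ± 3.84 against 35.4% ± 3.79. The part of GC content in these counts was not tested.

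Members are long genes, and a long body has more room for a summit. Their median length was 5.22 kb against 2.03 kb, and 8 of them reached 10 kb. Among genes over 10 kb, 7 of 8 members had a pooled body summit (87.5%) and 71.2% of all genes did. From 5 to 10 kb it was 10 of 13 (76.9%) against 51.1%, from 2 to 5 kb 8 of 11 (72.7%) against 31.1%, and under 2 kb 5 of 7 (71.4%) against 10.7%. The gap was thus wide in the short genes, which include pat-10, mlc-1 and mup-2, and narrow in the giant ones. The 5′ window has 1 size for all genes, and its share still differed by length. It was 7 of 9 members (77.8%, against 26.5% of all genes) under 2 kb and 8 of 11 (72.7% against 34.6%) from 2 to 5 kb. It was 6 of 13 (46.2% against 43.1%) from 5 to 10 kb and 4 of 8 (against 39.4%) over 10 kb, so that among long genes the members' 5′ share was close to that of all genes.

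**Figure D4:**
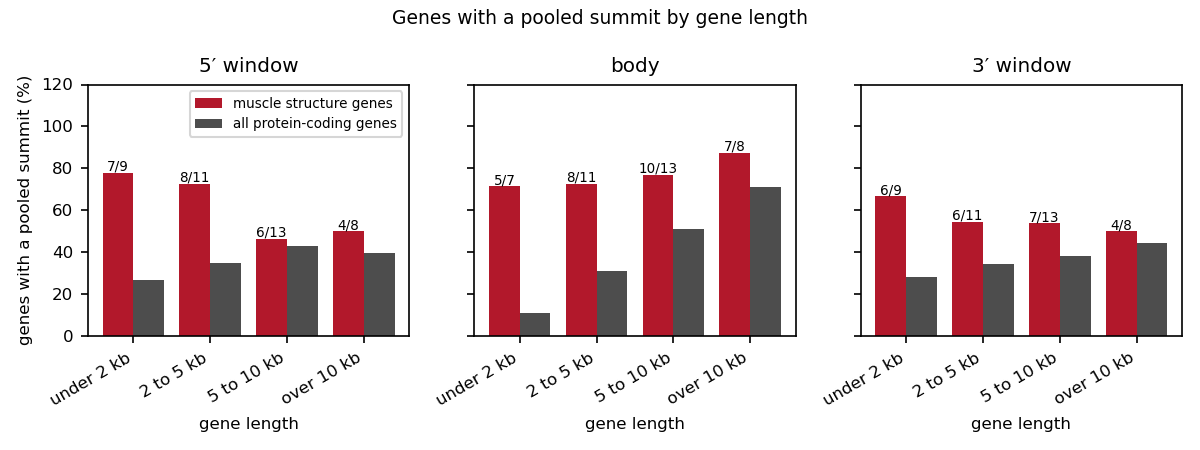
Percentage of genes with a pooled summit (bars, from 0) in the 5′ window, body and 3′ window by gene length, for members (red, with the count above the bar) and all protein-coding genes (grey). In the body, members under 2 kb reach 71.4% against 10.7%, and members over 10 kb 87.5% against 71.2%.

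Counted per length of body, the pooled list held 3.81 summits per 10 kb in members, 3.1 over all genes and 2.99 over the 6 chromosomes. With only the stronger 15000 pooled regions the order turned, with 1.07 in members and 1.38 over all genes. In the 5 longest members, ttn-1, unc-89, unc-22, unc-52 and dys-1, it was 3.23 per 10 kb, against 3.28 in all genes over 10 kb, close to that of long genes in general, although unc-22 alone had 6.16. All members over 10 kb together had 2.99 per 10 kb. Members under 10 kb had 5.93 per 10 kb in the pooled list, 4.83 in replicate 1 and 6.93 in replicate 2, against 3.01, 2.95 and 3.15 in all genes under 10 kb. Among members with a body over 5 kb, densities ran from 0 in pat-2, unc-87 and unc-96 to 15.9 in atn-1, with 11.2 in lev-11, 10.7 in unc-15 and 10.6 in unc-54. The values were 1.24 in deb-1 and 2.23 in ttn-1. Of the 150 body summits 84 lay in exons (56.0%), which made up 49.8% of the bases of these bodies, and over all genes 47.1% of the body summits lay in exons and 36.6% of the bases were exonic. Within 500 bp of another annotated 5′ end of the same gene lay 15 body summits (10%), where such windows cover 7.91% of the body bases, and over all genes it was 15.2% of the summits and 9.05% of the bases.

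**Figure D5:**
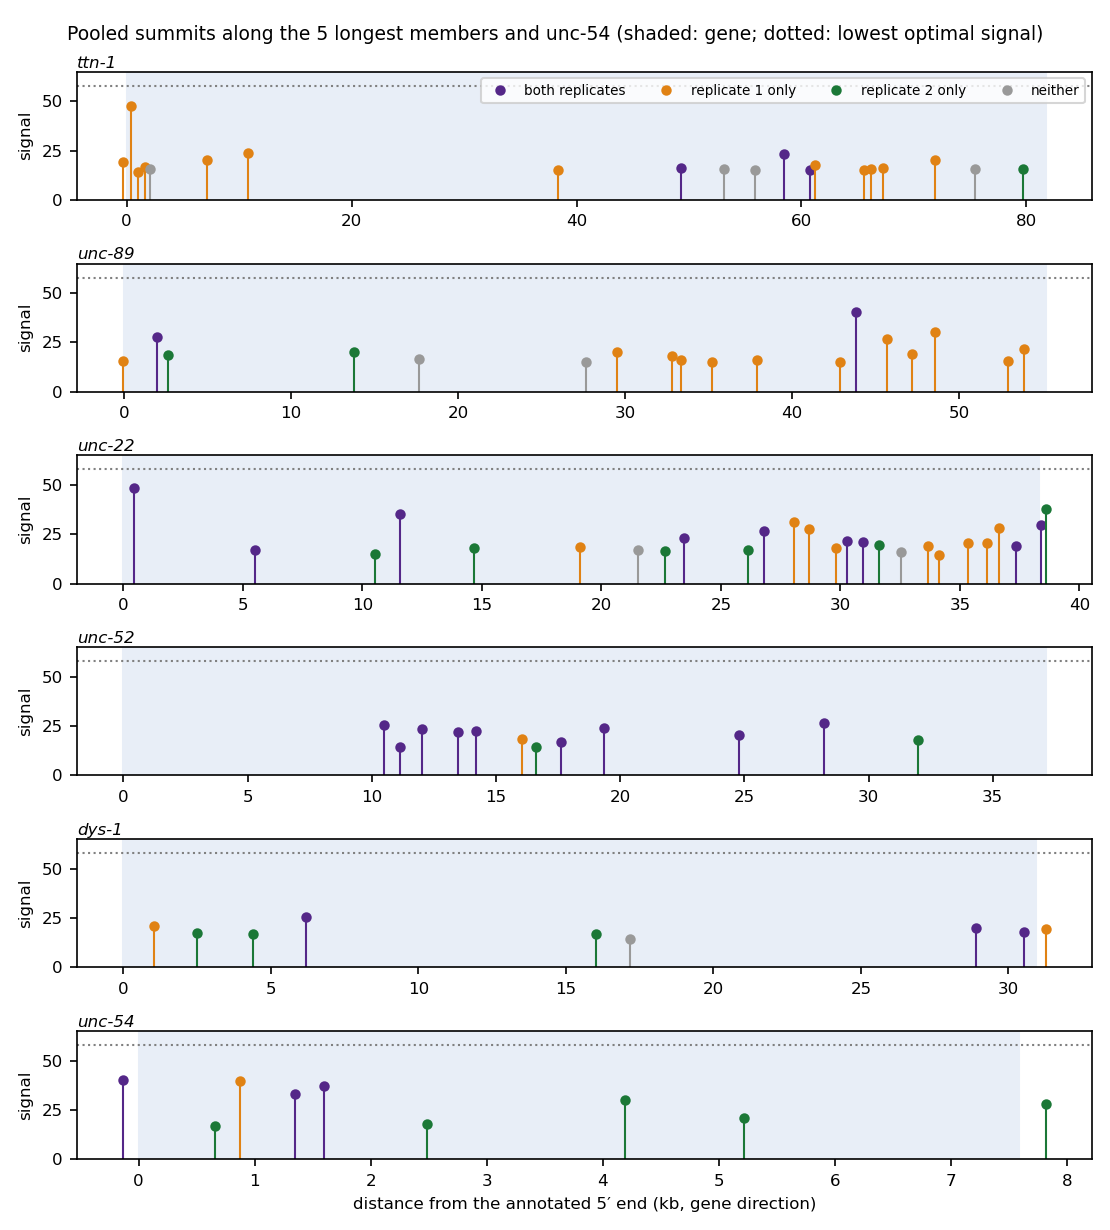
Pooled summits (dots) by distance from the annotated 5′ end in kb (horizontal axis) and by the authors' signal (vertical axis) along the 5 longest members and unc-54; the gene is shaded, the dotted line is the lowest optimal signal (57.9) and colours show which replicate lists hold a region within 200 bp. All dots lie below the dotted line, the highest being unc-22 at 48.4 and ttn-1 at 47.7 near the 5′ end, and unc-52 has none in its first 10.5 kb.

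Other muscle genes were read the same way, from lists of gene names, beside 31.8% of all genes with a pooled 5′ summit and 28.6% with one in the body. The actins had the highest share, with 5 of 5 genes marked at the 5′ end in the pooled list. In the optimal list it was 3 of 5, namely act-4 (signal 219), act-2 (64.7) and act-1 (59.5). Actin genes are close copies, among which reads can be split. One of the 5, act-5, is also on the intestinal list, so this count is not of muscle genes alone. Among other attachment and sarcomere genes, 9 of 20 had a pooled 5′ summit, led by the phosphatase gene scpl-1 (42.6) and the talin gene tln-1 (40.7). A body summit was found at 17 of 20 and an optimal 5′ summit at 0. Many of these genes, such as lim-9, cpna-2 and ketn-1, are over 10 kb. Of all genes over 10 kb, 71.2% had a pooled body summit, and 51.1% of those from 5 to 10 kb. Of the genes for calcium and excitation 4 of 12 were marked at the 5′ end (33.3%), with an optimal summit at the junctophilin gene jph-1 (64.2) and one of 55.2 at the calcium pump gene sca-1. Receptor genes for nerve signals had 4 of 11 (36.4%), led by the GABA receptor gene unc-49 (28.3) and the acetylcholine receptor gene unc-29 (26.0), and other dystrophin complex genes 2 of 9 (22.2%), which were islo-1 (44.9) and sgca-1 (34.7). Muscle regulators had 3 of 9 (33.3%), led by egl-15 (39.1) and unc-120 (32.05), basement membrane genes 2 of 10, namely ost-1 (67.5, optimal) and let-2 (23.0), and non-muscle and other myosins 6 of 10, led by mlc-4 (43.6) and mlc-5 (40.5). Pharyngeal muscle, a separate muscle with its own myosins, had 2 of 8, pha-4 (33.8) and myo-2 (18.01). Among short lists of markers for other tissues, 3 of 8 nerve cell genes, 5 of 8 epidermal genes and 5 of 7 intestinal genes had a pooled 5′ summit, and no list was tested against another. The strongest were snb-1 (52.4) and ric-19 (31.6) among nerve cell genes, rol-6 (78.8, optimal) and grh-1 (48.9) among epidermal genes, and act-5 (38.3) and asp-1 (35.6) among intestinal genes. The lists with 4 of 12, 4 of 11, 3 of 9 and 3 of 8 genes lay close to the share of all genes.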

How the data were processed

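AMA-1 ChIP-seq had been done on 2 biological replicates of whole L3 larvae. The authors deposited lists of regions with 10 columns in builds ce10 and ce11, 4 in each, and the ce11 lists were used here, since gene positions came from Ensembl release 115 on WBcel235. Per the labels and file names, 1 permissive list per replicate, 1 on pooled reads and 1 optimal IDR-thresholded list were made. The authors' signal value stands in column 7 and their −log10 q-value in column 9, which no result uses. Aligner, caller and read depth were not given in the sources used here, so the depth behind each region is unknown. Control libraries were not analysed here.

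The summit was column 2 plus column 10, printed here counting from 1. Genes were scored with Python 3.11.15, pandas 2.3.3 and scipy 1.17.1 on the 19973 protein-coding genes, with windows of 500 bp, and a summit could count for several genes. A replicate region matched within 200 bp, and the same region could match more than 1 pooled summit. Scoring was tested on simulated data. Counts were set beside those of all protein-coding genes, with exact (Clopper-Pearson) 95% intervals that cover counting error only; no test was run. Motifs were searched within 50 bp of summits. The members and the other lists were chosen with earlier results of these data known. Values are given for each member with an optimal summit, the 12 strongest at the 5′ end, the 5 strongest at the 3′ end, the 5 longest and, by name, those with no pooled summit, and for the 2 strongest genes at the 5′ end and all with an optimal 5′ summit of each other list. Genes named beyond these were chosen after their values were seen. Of the intestinal markers 1 name was not found in the annotation.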

Additional observations from a re-analysis of the deposited data

How the results depend on the processing

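The counts were recomputed with windows of 250 and 1000 bp, with the ends of every annotated transcript, with each summit counted for 1 gene only, without genes whose place another gene shares, with the strongest 0.5 of a list, with any overlap in place of the summit, with other matching distances, with more regions and with each replicate alone. Where a replicate was left out, the list of the other replicate stood in for the pooled list. For the optimal list its 3052 strongest regions stood in, with no IDR filter, so these are not optimal lists. The setting with 2 times as many regions took the strongest of the pooled list, also with no IDR filter. Of 83 values in all these settings 61 stayed within 1.5 times the main one. No paired analysis was possible because there was 1 group.

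The optimal 5′ count of 1 became 0 at 250 bp, 0 among the 33 members that share no window and 2 at 1000 bp. It was 8 with 2 times as many regions (19.5% against 10.9%), and ran from 1 to 2 in the stand-in lists of single replicates. The optimal body count of 0 became 4 with 2 times as many regions (10.3% against 6.57%, or 0.102 per 10 kb against 0.485). In the stand-in lists of single replicates it ran from 1 to 3, or 0.0254 to 0.102 per 10 kb. The optimal 3′ count of 4 was 2 of 15 unshared members (13.3% against 3.44% of all genes) and 2 with the strongest 0.5 (4.88% against 3.24%). In the stand-in lists it ran from 2 without replicate 2 to 7 without replicate 1.

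With the strongest 0.5 of the pooled list the 5′ count was 15 (36.6% against 20.9%), the body count 19 (48.7% against 15.3%), the 3′ count 15 (36.6% against 20.1%) and the body density 1.07 per 10 kb, now below the 1.38 of all genes. The pooled 3′ count of 23 was 15 (36.6% against 22.3%) when each summit counted for 1 gene, and 6 of 15 among unshared members (40.0% against 20.0%). The pooled 5′ count ran from 18 to 24 with a replicate left out, the body count from 28 to 33, the 3′ count from 21 to 25 and the body density from 3.46 to 3.86. A 5′ summit in both replicates was found at 7 of 33 unshared members (21.2% against 14.5%). Without replicate 1 the pooled 5′ count was 18, and at 250 bp it was 17 (41.5% against 23.1%). Depth is unknown, which limits what an absent region shows.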

Other observations

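At the 3′ end, replicate 2 gave several members a stronger rank than replicate 1 did. In the 3′ window its strongest region ranked 393 at pat-4, 440 at cpn-3, 530 at deb-1, 1748 at pat-3, 2015 at unc-45, 2054 at tnt-2 and 2981 at lev-11, whereas in replicate 1 the ranks were 1843, 2042, 4681, 13269 and 7452 at the first 5 in that order, and tnt-2 and lev-11 had no region there. Other members went the other way there. Replicate 1 ranked unc-27 and mlc-3 higher, at 6989 and 5933 against 7964 and 8023 in replicate 2. At tni-1 the replicate 1 region ranked 5711, and replicate 2 had no region there. Over all genes, replicate 2 marked 34.3% of 3′ windows and replicate 1 marked 29.8%. At the 5′ end members also went either way. Replicate 1 ranked unc-60, mlc-3 and atn-1 higher, at 967, 2570 and 3346 against 4179, 9390 and 6215 in replicate 2. Replicate 2 ranked unc-15, unc-22, unc-54 and cpn-3 higher, at 3610, 3394, 5857 and 1673 against 4773, 7410, 10916 and 6667 in replicate 1. These ranks are of the strongest region of each list in the window, which need not be at the same summit. These genes were picked after their values were seen, and the difference between the replicates was not tested.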
